A study of Drosophila melanogaster with 2 samples.

Results

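RpL genes encode proteins of the large subunit of the cytoplasmic ribosome. In the Drosophila melanogaster annotation examined, 48 genes met the rule for RpL symbols given next, and 46 of them had a peak of GFP-tagged NC2beta at the promoter in embryos. The 48 are the protein-coding genes of the Ensembl annotation (build BDGP6) whose symbol is RpL, an optional P, a number and optional letters, out of 13945 protein-coding genes on the arms examined. Symbols with a hyphen, such as RpL22-like or the ribosomal protein gene RpL37-1, fall outside that rule and are counted with the other genes. The data come from chromatin immunoprecipitation with sequencing (ChIP-seq), in which DNA bound by a protein is recovered with an antibody, sequenced and summarised as peaks. An antibody against GFP was used on whole embryos 0 to 24 h old, pooled from males and females, of a transgenic line that stably expresses NC2beta with GFP fused to its C-terminal end. All samples share that genotype and stage, so the samples are 1 group of 2 biological replicates (replicate 3 and replicate 1 by the labels' numbering), and no untagged or untreated group was analysed here. A pool of embryos over 0 to 24 h averages over all tissues and stages, and a peak cannot be assigned to a cell type.

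Ribosomal protein genes are among the most actively transcribed genes of a growing cell, and in flies their transcripts begin within a run of pyrimidines known as the TCT element, or polypyrimidine initiator. TCT promoters are known in Drosophila to be served by TRF2, a relative of the TATA-binding protein TBP, and several are bound by DREF, which recognises the DNA replication-related element (DRE), or by M1BP, which recognises Motif 1. NC2, a dimer of NC2alpha (DRAP1) and NC2beta (Dr1), binds TBP on DNA and is known both to repress TATA promoters and to activate others. Transcription start sites are abbreviated TSS below, and a gene is called bound when an optimal peak, one of the 3897 that the authors retained as reproducible, had its summit within 250 bp of any of its annotated TSSs. The word stands for the presence of that peak and no more. No control alignment was used here, and the amount of DNA recovered at these promoters without the tagged protein was not tested.

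The sequences that follow are the promoters on which the results turn, taken from the Release 6 (dm6) genome, 60 bases before the TSS and 25 bases from the TSS on, so that the TSS is base 61. Capitals mark a TCT element, read as C or T, then CTTT, then C or T, on the sense strand with its first C of CTTT within 20 bases of the TSS, and also a DRE (TATCGATA) or a Motif 1 core (GGTCACACT) on either strand. The first group holds 5 of the highest members, and for RpL7 the window is set on the TSS that has the TCT. RpL7 is shown at chr2L:10201040-10201124 on the plus strand, RpL23A at chr3L:1668630-1668714 on the minus strand, RpL14 at chr3L:8600946-8601030, RpLP0 at chr3L:22076032-22076116 and RpL13A at chr3R:5624414-5624498, the last 3 on the plus strand.
RpL7: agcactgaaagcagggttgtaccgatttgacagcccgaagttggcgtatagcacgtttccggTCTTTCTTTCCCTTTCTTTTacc
RpL23A: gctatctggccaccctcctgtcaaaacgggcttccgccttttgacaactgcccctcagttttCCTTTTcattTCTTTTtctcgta
RpL14: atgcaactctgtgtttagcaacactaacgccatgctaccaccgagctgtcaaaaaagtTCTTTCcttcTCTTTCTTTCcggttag
RpLP0: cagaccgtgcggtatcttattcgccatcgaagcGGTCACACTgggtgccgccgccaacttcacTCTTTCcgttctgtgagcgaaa
RpL13A: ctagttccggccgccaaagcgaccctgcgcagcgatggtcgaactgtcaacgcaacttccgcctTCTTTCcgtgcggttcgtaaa

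The second group holds the 2 lowest bound members, RpL6 and RpL21, and both unbound members, RpL40 and RpL10Aa. RpL6 is shown at chr3R:31596180-31596264 on the minus strand, RpL21 at chr2L:22247809-22247893 on the minus strand, RpL40 at chr2L:4227639-4227723 on the plus strand and RpL10Aa at chr3R:15037306-15037390 on the plus strand. Of these 4 promoters, RpL10Aa alone has no capitals. The other three hold a TCT just downstream of the TSS, as the high promoters above do.
RpL6: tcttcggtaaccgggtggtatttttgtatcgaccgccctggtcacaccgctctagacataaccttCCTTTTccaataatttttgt
RpL21: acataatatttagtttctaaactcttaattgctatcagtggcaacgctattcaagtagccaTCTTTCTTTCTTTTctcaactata
RpL40: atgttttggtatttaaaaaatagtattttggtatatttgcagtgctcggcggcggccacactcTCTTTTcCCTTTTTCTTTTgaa
RpL10Aa: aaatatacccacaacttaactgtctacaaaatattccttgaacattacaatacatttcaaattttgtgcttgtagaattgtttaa

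The third group holds the copies of the duplicated genes: RpL34b at chr3R:9401202-9401286 and RpL34a at chr3R:26059243-26059327, both on the minus strand, and RpL10Ab at chr3L:11822791-11822875 on the plus strand, to be set beside RpL10Aa above. RpL34a has a DRE at position -43 and, unlike RpL34b, only a TCT whose C lies at position 16.
RpL34b: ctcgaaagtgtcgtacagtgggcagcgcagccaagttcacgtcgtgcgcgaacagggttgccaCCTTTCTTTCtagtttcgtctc
RpL34a: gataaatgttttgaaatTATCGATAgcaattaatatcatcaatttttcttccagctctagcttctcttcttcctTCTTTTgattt
RpL10Ab: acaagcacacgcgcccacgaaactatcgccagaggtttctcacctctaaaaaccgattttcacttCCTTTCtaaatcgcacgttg

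An optimal peak lay at 46 of the 48 RpL genes (95.8%), against 17.6% of all protein-coding genes. The share was 78.4% (29 of 37) for RpS genes, which encode the small subunit, 36.2% (17 of 47) for mRpL genes, which encode the large subunit of the mitochondrial ribosome, and 17.3% (2404 of 13897) for all genes other than RpL. The 46 bound members had 46 distinct peaks. In replicate 3 alone, 44 members had one of its 3897 highest regions at a TSS, against 16.4% of all protein-coding genes. In replicate 1 alone it was 46 members, against 17.9%, and 44 members had one in both replicates, against 12.9%. When any of the 30000 regions of the pooled list counted, whatever its height, 47 members had one at a TSS, against 48.5% of all protein-coding genes. Members are genes of one functional class and not independent replicates, so these shares are descriptions of the deposited lists and carry no test.

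**Figure D1:**
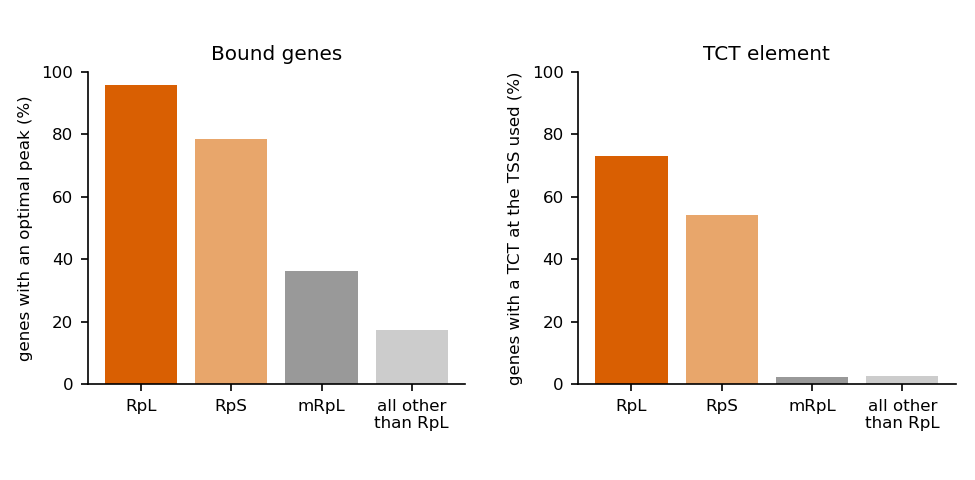
Percent of genes with an optimal NC2beta peak within 250 bp of a TSS (left) and with a TCT element at the TSS used (right), for RpL, RpS, mRpL and all protein-coding genes other than RpL. RpL genes are the highest of the 4 groups in both panels, at 95.8% bound and 72.9% with a TCT.

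The height of a peak is the authors' signal value, in a unit that no source used here gives, and it is compared only within one list. Bound RpL genes had a median pooled height of 363, with a range from 91.4 to 1399, whereas RpS genes had a median of 295, mRpL genes of 117 and all bound genes other than RpL of 113. Of the 46, 33 were among the 389 highest optimal peaks, against 2.04% of all protein-coding genes with a peak that high. Members held 4 of the 20 highest peaks, and 17 members had a peak among the highest 100, against 0.581% of all protein-coding genes (81, of which 3 were RpS genes). Only 2 bound members, RpL6 and RpL21, lay below the median height of the optimal set, 112. The −log10 q value was at its ceiling of 4.08 for all 46 and did not separate them.

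To set the replicates side by side, the height of the region at each peak was divided by the median of that replicate over the optimal peaks, so that 1 is a typical optimal peak. RpL7, an RNA-binding protein of the subunit, had relative heights of 11.3 in replicate 3 and 12.3 in replicate 1 (11.8 ± 0.75, SD, n = 2). Its peak (chr2L:10200816-10201242, dm6) ranked 3 of the 3897. RpL23A, which sits at the exit of the peptide tunnel where nascent chains meet chaperones and the signal recognition particle, had 10.8 in replicate 3 and 11.2 in replicate 1 (rank 5; chr3L:1668486-1668978). In both replicates these members lay above all the others.

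RpL14, a protein of the outer surface of the subunit, had 7.03 in replicate 3 and 9.78 in replicate 1 (8.40 ± 1.94, SD, n = 2), the widest spread of the highest 8. RpLP0, the base of the acidic stalk that recruits translation factors, had 6.91 and 7.93 in replicates 3 and 1. RpL13A, known in mammals for a role outside the ribosome in translational control, had 5.56 and 6.65. All of these stood more than 5 times above a typical optimal peak in both replicates.

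RpL41, a very short peptide at the interface of the subunits, had 5.34 in replicate 3 and 6.57 in replicate 1. RpL11, which carries the 5S RNA into the subunit together with RpL5, had 4.76 and 6.45. RpL30, whose yeast homologue binds and regulates its own transcript, had 4.86 and 5.84. With a pooled rank of 44, RpL30 closed the highest 8, and its order against RpL11 changed between the replicates.

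**Figure D2:**
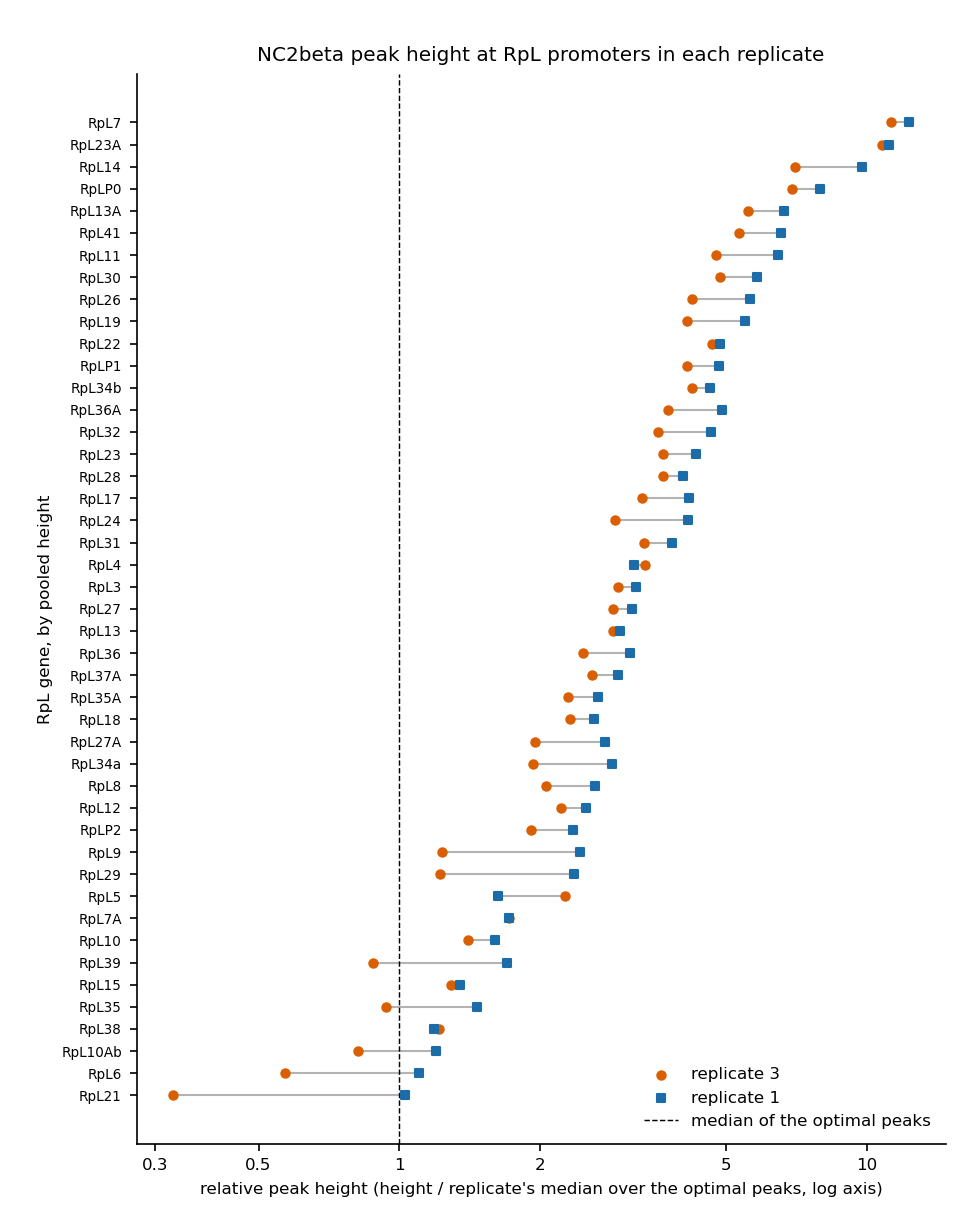
Relative peak height (height over the median of that replicate over the optimal peaks, log axis) for 45 of the 46 bound RpL genes in replicate 3 (circles) and replicate 1 (squares), ordered by pooled height, with grey lines joining the replicates. Members run from RpL7 at 11.3 and 12.3 down to RpL21 at 0.328 and 1.03, and the dashed line marks a typical optimal peak.

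At the other end were RpL10Ab, RpL6 and RpL21. RpL10Ab, the protein of the mobile L1 stalk through which spent tRNA leaves, had 0.815 in replicate 3 and 1.20 in replicate 1, at a pooled height of 122. RpL6, a protein of the solvent side, had 0.570 and 1.10, at a pooled height of 100.2. RpL21 had 0.328 and 1.03, and in replicate 3 its region ranked 13634 of 30000, against rank 1802 in replicate 1. RpL21 was therefore among the highest 3897 regions in replicate 1 only, and the same was true of RpL6, at rank 4896 in replicate 3 and 1563 in replicate 1.

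Members were also grouped by place in the ribosome, with RpL40 set apart as a ubiquitin fusion. Since 95.8% of all members were bound, against 17.6% of all protein-coding genes, a class bound in full is no result about its place. All 4 proteins of the acidic stalk (RpLP0, RpLP1, RpLP2 and RpL12) were bound, with a median pooled height of 405. All 9 of the exit tunnel and its rim (RpL4, RpL17, RpL19, RpL22, RpL23A, RpL26, RpL31, RpL35 and RpL39) were bound, with a median of 449 and a range from 147 to 1291. The 3 nearest the catalytic centre, RpL3, RpL8 and RpL10, had a median of 280. Both 5S RNA partners were bound, at 676 for RpL11 and 223 for RpL5. The 27 others were all bound, with a median of 339, and the ranges of these 5 classes overlapped. Of the L1 stalk pair RpL10Ab alone was bound, at 122, below every member of the stalk, tunnel, catalytic and 5S classes, and RpL40, the ubiquitin fusion, was unbound.

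The 2 members without an optimal peak were RpL40 and RpL10Aa, and neither gained one when the distance was widened to 500 or 1000 bp. RpL40 encodes ubiquitin fused to a ribosomal protein, from which both are released by cleavage. Its best pooled region had a height of 45.1 (rank 7960 of 30000), below the lowest optimal height of 74.1, with its summit at 62 bp from the TSS. In replicate 1 that region had a relative height of 0.454 (rank 6809), and replicate 3 listed none within 250 bp of that summit. The nearest optimal peak to an RpL40 TSS was 55015 bp away. RpL10Aa, a gene with 1 exon that duplicates RpL10Ab, had no region within 250 bp in the pooled list or in either replicate, and its nearest optimal peak was 50431 bp away. The unbound pair thus included a promoter with a TCT (RpL40) and one without (RpL10Aa).

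The duplicated copies differed in height. RpL34b had relative heights of 4.22 in replicate 3 and 4.61 in replicate 1, against 1.93 and 2.86 for RpL34a. RpL34b was higher in both replicates, by 0.91 ± 0.31 on the log2 scale (SD, n = 2), and the pooled heights stood in a ratio of 1.84. Both peaks are shared with a neighbouring gene, CG8132 for RpL34b and Trmt61 for RpL34a, so the heights cannot be credited to the copies alone. At RpL34a the replicate summits lay at -201 bp (replicate 3) and -164 bp (replicate 1), and the Trmt61 TSS lies 229 bp from that of RpL34a. The encoded proteins, of 168 and 162 residues, were 85.5% identical over 159 aligned residues, and the coding sequences 81.6% identical. RpL10Ab and RpL10Aa, 63.9% identical, differed more: RpL10Ab was bound, although low, and RpL10Aa had no pooled region. No test was run between copies, and how the authors treated reads that map to both copies is not given in the sources used here.

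Genes with hyphenated symbols were set beside their relatives. RpL22 was bound at a pooled height of 562, whereas its paralog RpL22-like, known for its expression in testis, had no pooled region, at a protein identity of 49.6%. RpL37-1 was bound at 402, and RpL37-2, 75.3% identical, had no pooled region even though it has a TCT at the TSS used. RpL24 was bound at 432 and RpL7 at 1399, against pooled regions of 56.7 for RpL24-like and 63.0 for RpL7-like, both below the optimal set; the yeast counterparts of those relatives act in assembly of the subunit and not in the mature ribosome. RpLP0 was bound at 887, against 160 for RpLP0-like, another assembly factor. In each pair the gene named first here had the higher pooled region or the only one. The regions at RpL7, RpL24-like, RpL7-like and RpLP0-like also lay within 250 bp of a TSS of another gene, so their heights cannot be credited to the named gene alone.

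Genes for assembly of the large subunit formed another list. Of 9 such genes, 5 were bound (55.6%), against 17.6% of all protein-coding genes: eIF6, which keeps the subunits apart, at 484 (rank 89), RpLP0-like at 160 in a peak shared with 14-3-3zeta, Nle at 126 in a peak shared with Sf3b1, Non1 at 78.5 and ppan at 75.1. Nmd3, the export adaptor of the subunit, Ns3, RpL24-like and RpL7-like were not. Of 4 genes for factors known at ribosomal protein or TATA promoters, 3 were bound, namely Dref (339, in a peak it shares with RpL13), Trf2 (96.8) and M1BP (81.2), and Tbp was not. The bound assembly genes had a median height of 126, against 363 for the bound RpL genes.

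The replicates ranked the members alike but not at equal relative height. Across the 46 bound members the Spearman correlation of relative heights was 0.97, given as a description, since genes of the same libraries share depth and scale. The log2 ratio of relative height, replicate 3 over replicate 1, had a median of -0.26, and 43 of 46 members were lower in replicate 3, against 49.7% of the 3884 optimal peaks that both replicates list. That share was 43.7% for the 389 highest optimal peaks and 53.1% for the other bound genes. RpS genes had a median of -0.18. Within 1 log2 unit lay 45 of 46 members, against 95.3% of the optimal peaks. On the same scale the optimal peaks had a median log2 ratio of 0.0039. Over the median of each replicate's whole list of 30000 regions the median of the members was -0.51. That change of divisor moves the ratio of every peak by the same amount, so it leaves the members where they were relative to the other peaks.

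The largest differences towards replicate 1 were those of RpL21 (-1.64), RpL9 (-0.98) and RpL39 (-0.96). RpL9, a protein near the site where translation factors bind, had a relative height of 1.23 in replicate 3 and 2.44 in replicate 1. RpL39, a small protein lining the exit tunnel, had 0.877 and 1.70. In the other direction, RpL5 had 2.26 in replicate 3 and 1.63 in replicate 1 (log2 ratio 0.48). RpL4, which lines the tunnel, was at 0.08, and RpL38, known in mice for its part in translating Hox transcripts, was at 0.03. Those 3 were the only members higher in replicate 3, and for RpL4 and RpL38 the relative heights nearly matched.

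**Figure D3:**
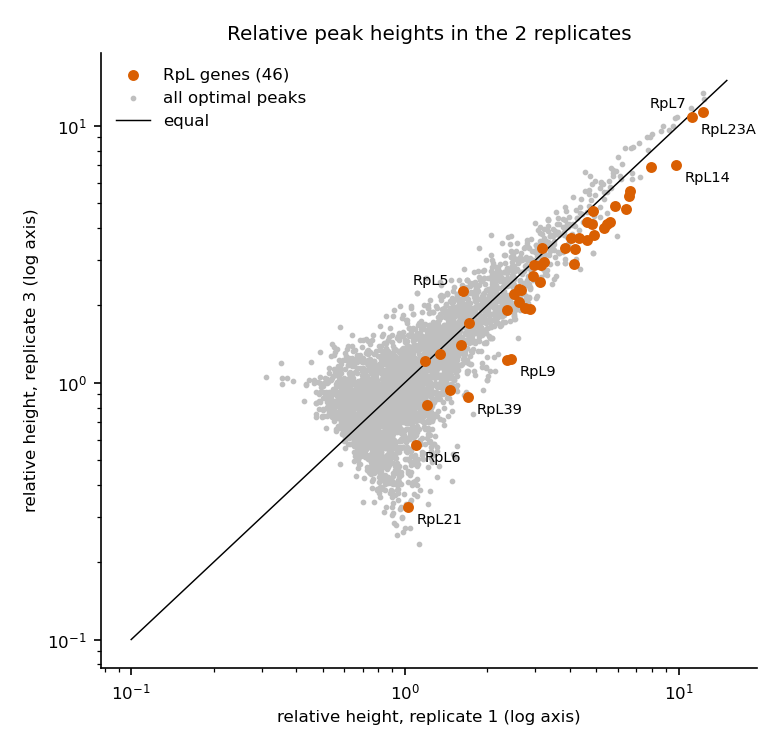
Relative peak height in replicate 3 (vertical) against replicate 1 (horizontal), both on log axes, for the 46 bound RpL genes (large points) and all optimal peaks listed in both replicates (small points). The line marks equal heights; 43 of the 46 members lie below it, and RpL21 lies farthest from it.

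The summits of RpL peaks lay close to the TSS. The median summit position was -18.5 bp from the nearest TSS of the gene (quartiles -51.25 and 0.75, negative upstream), against -75 bp for all bound genes other than RpL, -9 bp for RpS and -117 bp for mRpL genes. A summit within 50 bp of a TSS was found for 32 of 46 members (69.6%), against 31.0% of the other bound genes. Upstream of the TSS lay 32 members (69.6%), against 81.2% of the other bound genes. A gene with more TSSs has more chances of a near one, so genes were also split by TSS number. With 1 TSS the median was -41 bp for 22 bound members and -88 bp for the other genes, and with several it was -7.5 bp for 24 members and -58 bp for the others. Members were nearer in both classes. The summits of the replicates lay a median of 17 bp apart for members and 26 bp for all optimal peaks, and within 50 bp for 40 of 46 members.

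**Figure D4:**
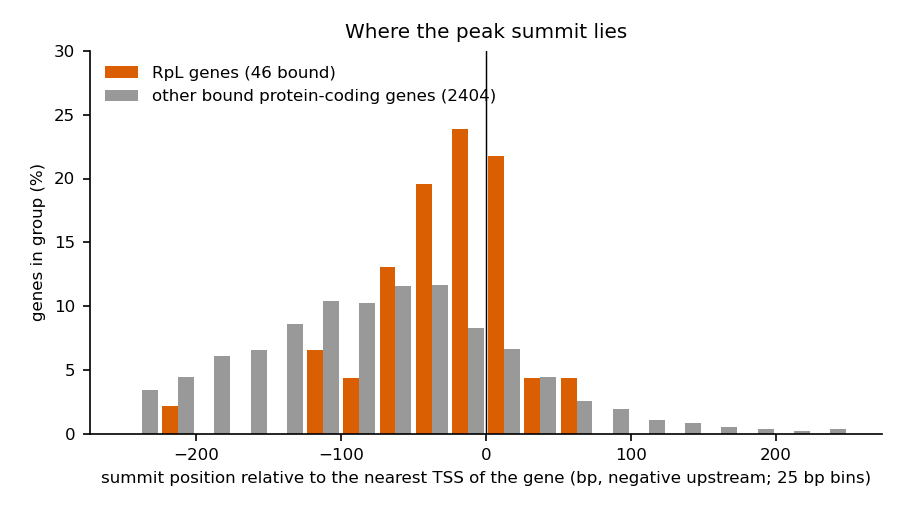
Percent of bound genes with the peak summit in each 25 bp bin around the nearest TSS (negative upstream), for 46 RpL genes and 2404 other bound protein-coding genes. RpL summits gather in the bins from 75 bp upstream to 25 bp downstream, and the other genes spread farther upstream.

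Summit positions were also measured from the TCT element itself. From the C of the nearest TCT, the median position was -45.5 bp over 46 bound members (quartiles -65.75 and -8.25), with 40 summits upstream of the C and 5 downstream. The summits thus mostly lay on the promoter side of the pyrimidine run. In the annotation 45 of 46 summits lay before the start codon, with a median of -183.5 bp from it along the genome, and 5′ UTR lengths ran from 26 bases in RpL13A to 354 bases in RpL15. RpL39 was the exception, with its summit 18 bp past the start codon.

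Among the members with summits farthest upstream were RpL35, at the tunnel exit, with its summit at -118 bp, and RpL34a at -112 bp. RpL34a shares its peak with a divergent gene. Farthest downstream were RpL21 at 69 bp, RpL39 at 59 bp and RpL12, a protein of the stalk base, at 35 bp. RpL21 and RpL39 also had 2 of the 3 lowest ratios of replicate 3 to replicate 1.

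Peaks shared with a neighbour were all of one arrangement. For 10 members the summit also lay within 250 bp of a TSS of another protein-coding gene, and in all 10 that gene was divergent, its TSS on the other strand and pointing away. Sharing is not particular to members, since the 2450 bound protein-coding genes had 1956 optimal peaks at a TSS. The share with a divergent neighbour was not computed over all bound genes. RpL7 and Ripalpha start 30 bp apart, RpL13 and Dref 84 bp apart, RpL29 and Sgf29, a subunit of the SAGA coactivator, 122 bp apart, and RpL14 and Nelf-E, a subunit of the pausing factor NELF, 127 bp apart. Further pairs were RpL19 with CG3776 (131 bp), RpL41 with NaCP60E (182 bp), RpL34a with Trmt61 (229 bp), RpL3 with CG6693 (255 bp) and RpL34b with CG8132 (269 bp). The pooled summit was nearer the RpL gene in 8 of 10. At RpL34a it was only slightly nearer (-112 bp, against -117 bp from Trmt61), and the replicate summits lay farther upstream, at -201 and -164 bp. None of the 10 neighbours had a TCT at its TSS, an element found at 2.67% of all protein-coding genes. Shared peaks had a median height of 542, against 329 for the 36 peaks of one gene. A peak over both starts cannot be divided between the genes.

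The TCT element was the feature common to the members. The TSS used is the one nearest the summit of the optimal peak or best pooled region, or with neither that of the canonical transcript. There 35 of 48 RpL genes (72.9%) had a TCT with its C within 10 bases. The share was 54.1% (20 of 37) for RpS genes and 2.67% for all protein-coding genes. At any annotated TSS 43 members had one, against 3.83% of all protein-coding genes, and within 50 bases of any TSS 47 members, against 15.7%. RpL12, RpL17, RpL26 and RpL34a had one only within the wider window, and RpL10Aa had none. At the TSS used, the first such C had a median position of 5, with a range from -2 to 10, and in 32 members it lay from 3 to 10. For 8 members (RpL7, RpL30, RpL19, RpL24, RpL13, RpL36, RpL37A and RpL5) the TCT was at an annotated TSS other than the one nearest the summit. A match of 6 letters is a description of the sequence and not a measured start.

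Heights of members with and without a TCT overlapped. Bound members with a TCT at the TSS used had a median height of 363 (34 genes, 91.4 to 1291), and those without one 386 (12 genes, 223 to 1399). Of the genes other than RpL and RpS that had a TCT, 52 of 318 (16.4%) were bound, close to the 17.6% of all protein-coding genes, with a median height of 121. All 46 bound members had a TCT within 50 bases of some TSS, so the members without one at the TSS used are not promoters without a TCT nearby.

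The Initiator and the TATA box were found at few RpL promoters. The Initiator, read as TCA, then G or T, then T, then C or T, was found at 1 member, RpL23A, against 14.1% of all protein-coding genes. A TATA box (TATAAA with at most 1 mismatch, starting 40 to 20 bases upstream) was found at 5 members, against 24%. These were RpL3, RpL27, RpL38, RpL39 and RpL10Aa. Motif 7, read on either strand as CAGCNCTA, was found at 2 members (4.17%), RpL17 and RpL34a, against 2.76%, a share near the background.

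The DRE was found at 10 members, against 8.05% of all protein-coding genes, between positions -92 and 7 around a median of -44, RpL41, RpL19, RpL36A, RpL28, RpL27, RpL36, RpL34a, RpL39 and RpL10Ab among them. All 10 were bound, with a median height of 410 (122 to 703), against 352 (91.4 to 1399) for the 36 bound members without one. The DRE is not particular to RpL genes: 12 of 37 RpS genes (32.4%) had one, a larger share than the 20.8% of members. Of the genes other than RpL and RpS with a DRE, 28.5% (313 of 1100) were bound, with a median height of 110. The Motif 1 core was found at 6 members, against 5.56%: RpL7, RpLP0, RpLP1, RpL27, RpL37A and RpL27A. All 6 were bound, with a median of 448 (286 to 1399), against 352 (91.4 to 1291) for the 40 without one. For both elements the ranges with and without it overlapped, and 95.8% of all members were bound. Of the genes other than RpL and RpS with a Motif 1 core, 31.9% (245 of 767) were bound, with a median height of 106. All bound genes other than RpL and RpS had a median height of 112. RpL27 had both elements, and 33 members had neither. Those 33 included RpL23A, RpL14 and RpL13A, so that 3 of the 5 highest peaks lay at promoters without an exact DRE or Motif 1 core in the window from -150 to 50.

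**Figure D5:**
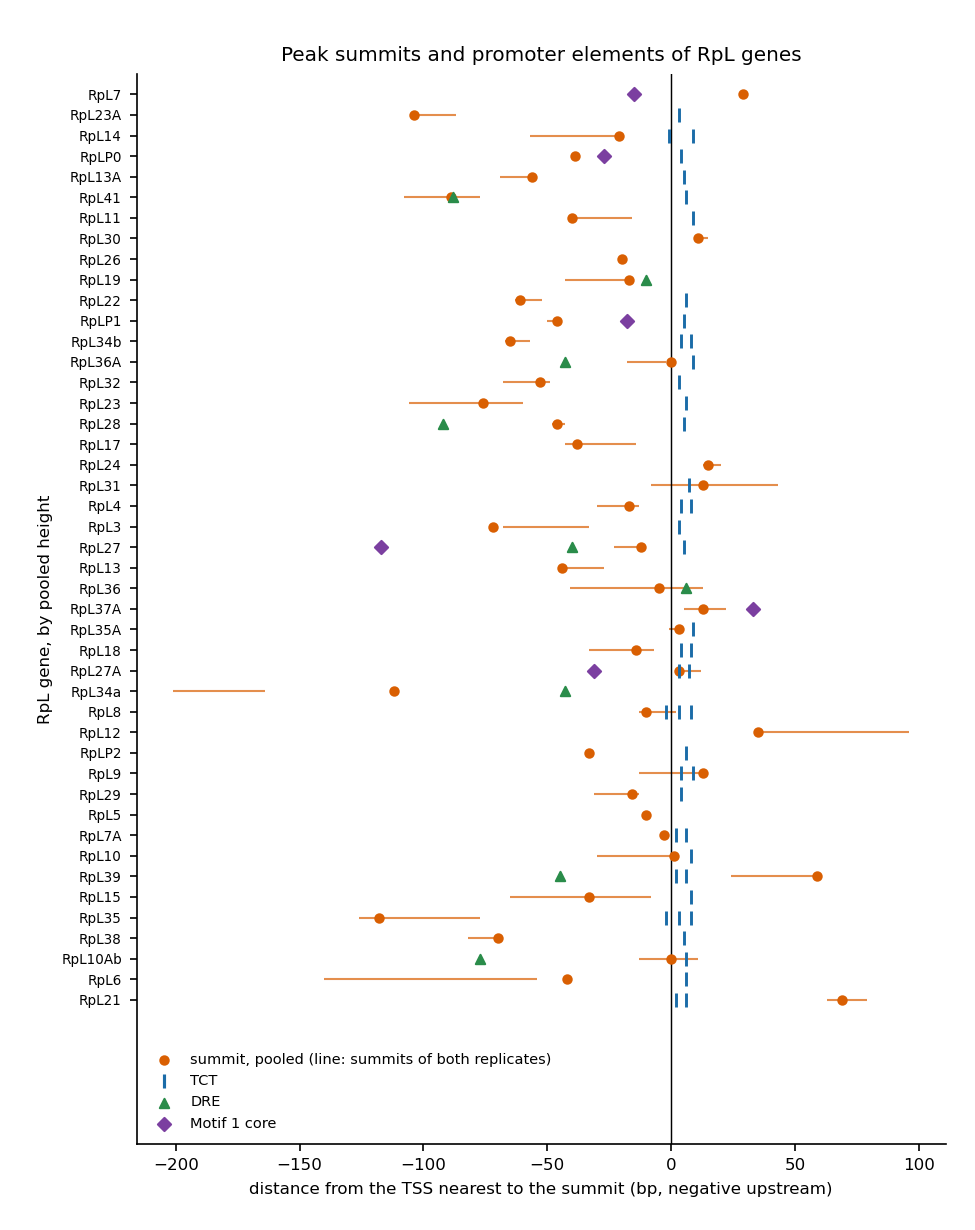
Position of the pooled peak summit (circles), the replicate summits (ends of each line), TCT elements, DREs and Motif 1 cores relative to the TSS nearest the summit (bp, negative upstream) for 45 of the 46 bound RpL genes, ordered by pooled height. TCT elements cluster just downstream of the TSS, with the C at a median position of 5, and most summits lie to their left; elements at other TSSs of a gene are not drawn.

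Many RpL genes also carry small nucleolar RNA (snoRNA) genes, most of which guide modification of ribosomal RNA, and which are usually processed from introns. In the annotation 16 members held 33 snoRNA genes. All 16 were bound, but so were 30 of the 32 members without a snoRNA gene (93.8%). The median height was 454 for the 16, against 329 for the 30 bound members without a snoRNA gene, and the ranges overlapped. Away from the TSSs, 14 members had a pooled region of any height in the gene body and 0 had an optimal peak there. RpL18 was the one member with more than 1 optimal peak at its TSSs. The snoRNA, gene body and multiple peak counts were not made over all protein-coding genes, so they describe the members only.

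Members were spread over the genome, and the binding with them. All 11 members on arm 2R were bound (median height 423), as were all 10 on 3L (373) and all 5 on X (335), together with 11 of 12 on 2L (339) and 9 of 10 on 3R (365). The medians of the arms thus lay close together beside the range within each arm, and chromosome 4 holds no member.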

How the data were processed

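The authors' deposited dm6 lists give each region's interval, a signal value (the peak height, whose unit is not given here), a −log10 q value and a summit offset. Regions were called per replicate and on the pooled replicates, with 30000 regions per list, and the 3897 optimal peaks were exactly the highest pooled regions. Per the file lists deposited with the samples, regions were called from the alignments with another file, apparently the control, which was not analysed here. Aligner and peak caller: not given in the sources used here. Fragments were 200 to 800 bp per the labels, and without read totals no interval for depth can be computed. The dm3 lists were not used.

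TSSs came from Ensembl release 115 and bases from the Release 6 genome. Height in a replicate is that of its highest region within reach, over the replicate's median across the optimal peaks. Proteins were translated from the coding sequences and aligned globally. Python 3.11.15, numpy 2.4.6, scipy 1.17.1, Biopython 1.88 and matplotlib 3.10.9 were used, and all 6 checks on simulated data (500 genes) passed. Named in full are the 8 highest and 3 lowest bound members, unbound members, duplicated copies, and the 3 extremes each way in replicate difference and summit position. The members and gene lists were chosen with earlier results of these data known. No test was run over genes. One bound member enters every count and summary but is not reported here by name.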

Additional observations from a re-analysis of the deposited data

How the results depend on the processing

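Under 100 or 500 bp, peaks above the optimal median only, each replicate alone (44 to 46), a peak covering a TSS, the canonical TSS or both replicates, 42 to 46 members stayed bound. The share of all protein-coding genes under these settings ran from 9.01% (peaks above the optimal median) to 20.7% (500 bp). No paired analysis was possible because there is 1 group. The median relative height of 3.23 came to 2.97 to 3.24 with 1 replicate left out and 2.93 without members sharing a peak. The median summit position of -18.5 bp came to -30.5 to -20.5 bp with 1 replicate left out, -33.5 bp from the canonical TSS (-74 bp over all bound genes), -38.5 bp from the TCT TSS where one exists and -45.5 bp from the TCT C. TCT, Initiator, DRE, Motif 1 and Motif 7 counts were each 0 in windows moved 200 bp downstream, against 0.258% to 2.11% of all genes, and TATA counted 6 there (12.4%). With 1 mismatch DRE counted 18 (22.0% of all genes), Motif 1 14 (14.1%) and Motif 7 24 (39.6%). TATA counted 1 with no mismatch (7.97%) and 8 at any TSS (29.3%). The cause of these shifts was not tested. The other alternatives moved no result beyond its spread, and the log2 ratio of RpL34b over RpL34a was 0.69 to 1.13 with 1 replicate left out. The TCT-based positions, the joint replicate call, the wider TCT window at any TSS and the set without shared peaks were chosen after seeing the data. Limits are the 2 replicates, the control not analysed here and the unknown read totals.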
